A study of Mus musculus with 9 samples.

Results

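The miR-181 family was followed in small RNA from mouse milk fat. Its 7 members here are 4 mature miRNAs from the 5p side of their hairpins, mmu-miR-181a-5p, mmu-miR-181b-5p, mmu-miR-181c-5p and mmu-miR-181d-5p, and 3 from the 3p side, mmu-miR-181a-1-3p, mmu-miR-181a-2-3p and mmu-miR-181c-3p. The prefix mmu, for mouse, is left out below. They were chosen by name from the 1915 mature miRNA names of the deposited count table, not by their values. Earlier results of these data were known when they were chosen. The table lists 3 more names of the family, miR-181b-1-3p, miR-181b-2-3p and miR-181d-3p, which are given below where the 2 sides of a hairpin are compared. All dams were outbred ICR (CD1) females nursing a first litter, and milk was taken on lactation day 10, which is the same time point for every library. The control group (5 dams) ate a diet in which fat gave 10% of the energy, at 3.85 kcal per g. For the high-fat group (4 dams) fat gave 60% of the energy, at 5.24 kcal per g. Sucrose gave 7% in both. Each dam started on her diet at 4 weeks of age, 4 weeks ahead of mating, and stayed on it until milking. Before mating 2 dams of the same diet shared a cage. Each library came from 1 dam and from the washed fat layer of her milk, with no separation of the cell types that shed RNA into it, so fewer cells of a type and less RNA per cell cannot be told apart.

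A miRNA is cut from a hairpin-shaped precursor, and either side of the hairpin can yield a mature strand. Usually one side, the guide, is loaded into an Argonaute protein and kept, while the other, the passenger, is degraded. The guide finds its target messenger RNAs mainly through its seed, bases 2 to 8. The miR-181 family is best known from lymphocytes, where miR-181a sets the sensitivity of the T cell receptor and is needed for natural killer T cells, and its members are also found in epithelia and in the nervous system.

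The mature sequences show why these 4 guides are read as 1 family and why their reads are hard to tell apart. Each is printed 5′ to 3′ from RefSeq (GRCm38.p6), and capitals mark the seed.
miR-181a-5p: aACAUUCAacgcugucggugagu
miR-181b-5p: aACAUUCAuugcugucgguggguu
miR-181c-5p: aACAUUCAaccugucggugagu
miR-181d-5p: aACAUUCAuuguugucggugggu
All 4 carry the seed ACAUUCA, and no other of the 1623 names of the table that had a RefSeq sequence carries it. Positions are counted from 1 at the 5′ end. miR-181b-5p differs from miR-181a-5p by A9U, C10U and A21G. miR-181d-5p differs from miR-181b-5p by C12U alone and is 1 base shorter. miR-181c-5p is miR-181a-5p with the base at position 11 left out. The family thus falls into 2 look-alike couples, a with c and b with d, each made of one abundant and one scarce member.

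The 3p sequences are the ones that tell the hairpins apart, and capitals again mark bases 2 to 8.
miR-181a-1-3p: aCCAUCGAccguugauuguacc
miR-181a-2-3p: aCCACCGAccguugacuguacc
miR-181c-3p: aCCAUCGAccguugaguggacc
miR-181b-1-3p: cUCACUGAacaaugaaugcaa
miR-181b-2-3p: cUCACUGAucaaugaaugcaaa
miR-181d-3p: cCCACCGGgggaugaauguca
miR-181a-1-3p and miR-181a-2-3p differ by U5C and U16C, the first of them inside the seed. miR-181a-1-3p and miR-181c-3p share their seed and differ by U16G and U19G.

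The 6 hairpins lie in 3 clusters (GRCm38, GENCODE M21). Mir181a-1 and Mir181b-1 lie on chromosome 1 at 137966455 to 137966541 and 137966639 to 137966718, 97 bases apart, on the plus strand. Both are inside an intron of the noncoding gene Gm4258, and Mir181b-1 lies wholly in an exon of the noncoding gene A430106G13Rik, whose first 11 bases overlap Mir181a-1. Mir181a-2 and Mir181b-2 lie on chromosome 2 at 38852735 to 38852810 and 38853830 to 38853918, 1019 bases apart, on the plus strand and antisense to an intron of Nr6a1, which encodes a nuclear receptor of germ cells. Mir181b-2 is also antisense to an exon of the uncharacterised gene Gm44144. Mir181c and Mir181d lie on chromosome 8 at 84178873 to 84178961 and 84178716 to 84178787, 85 bases apart, on the minus strand in an intron of Nanos3, a germ cell gene on the same strand. The chromosome 1 and 2 clusters make the same 2 guides, so miR-181a-5p and miR-181b-5p are sums over both.

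The smallest library, control 5, had 837817 counts of mature miRNAs and the largest, high-fat 2, had 3897109, and the mean of the high-fat libraries was 1.56 times that of the controls. Libraries of one diet differed far beyond sampling noise, with a chi-square per degree of freedom of at least 50.2 between any pair. Levels below are in RPM, the reads of a name per 1000000 reads of mature miRNAs in its library. Control library 5 stood apart with the smallest total and the lowest summed level of 8 secretory epithelium miRNAs, 46.1% of its counts against 48.8% to 51.8% in the other libraries. High-fat libraries 1 and 3 stood apart by 7 leukocyte miRNAs, which summed to 1.23% and 0.353% of counts there and to 0.0314% to 0.106% elsewhere. High-fat library 3 also had the highest sum of 4 erythrocyte miRNAs, 0.0650% of counts against at most 0.0158% elsewhere. None of the 7 leukocyte names was at 0 in any library.

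miR-181a-5p was one of the most abundant miRNAs of milk fat and made up most of the family. It measured 35720, 34039, 38538, 33972 and 57100 RPM in control libraries 1 to 5. It measured 35537, 37046, 58242 and 53739 in high-fat libraries 1 to 4. Control library 5 and high-fat libraries 3 and 4 were high, the other 6 lay close together, and the diets overlapped. Its rank among all names was between 3 and 6 in the 9 libraries. The mean was 39874 ± 9806 RPM (SD, n = 5) in control milk against 46141 ± 11537 (SD, n = 4) under the high-fat diet.

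miR-181b-5p showed the same high libraries. It measured 9146, 8855, 9537, 7347 and 13674 RPM in the controls and 9474, 8304, 12830 and 10119 in the high-fat libraries, and again the diets overlapped. Between 3.75 and 5.31 reads of miR-181a-5p were counted for each read of miR-181b-5p. That ratio was lowest in high-fat library 1 and highest in high-fat library 4, so both ends of its range lay in the same diet.

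miR-181c-5p was the member whose diets did not overlap. It measured 581, 625, 543, 599 and 571 RPM in control libraries 1 to 5, and these 5 dams lay close together. In high-fat libraries 1 to 4 it measured 736, 735, 1019 and 1081, so 4 of 4 were above every control, with libraries 3 and 4 highest. The counting error of single libraries is smaller than this gap, since the 95% Wilson interval was 583 to 670 for the highest control and 709 to 763 for the lowest high-fat library. These intervals cover counting error only.

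miR-181d-5p, whose hairpin lies next to that of miR-181c, overlapped between diets. It measured 440, 362, 436, 499 and 347 RPM in the controls and 497, 405, 558 and 586 in the high-fat libraries. High-fat libraries 3 and 4 were above every control, while high-fat library 2 was below 3 of the 5. For each read of miR-181d-5p the reads of miR-181c-5p numbered 1.43 ± 0.241 (SD, n = 5) in control milk against 1.74 ± 0.174 (SD, n = 4) under the high-fat diet, and 3 of the 4 high-fat values exceeded the highest control.

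Among the 3p members only miR-181a-1-3p was well counted. It measured 319, 313, 302, 266 and 310 RPM in the controls and 308, 328, 396 and 363 in the high-fat libraries. Control library 5, where miR-181a-5p was highest among the controls, was not high for miR-181a-1-3p. miR-181c-3p measured 31.5, 25.7, 40.7, 41.9 and 40.6 RPM in the controls and 40.2, 30.8, 28.2 and 37.2 in the high-fat libraries, so the high-fat libraries lay within the range of the controls. miR-181a-2-3p had 0, 1, 3, 0 and 3 counts in the controls and 3, 8, 2 and 5 in the high-fat libraries. Where none was counted, a limit of 3 counts corresponds to 1.78 RPM in control library 1 and 1.88 RPM in control library 4.

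**Figure D1:**
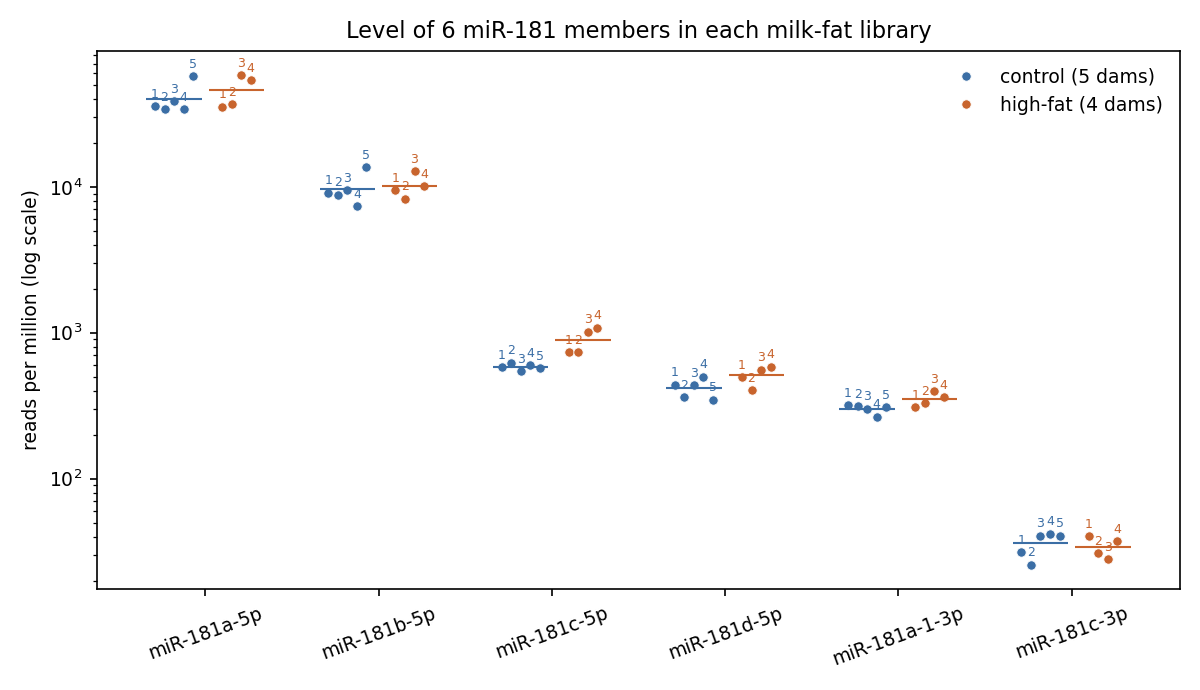
RPM (log axis) of 6 miR-181 members in each library, control in blue and high-fat in orange, with the replicate number above each point and a line at the mean of each diet. miR-181c-5p is the one member whose 4 high-fat points all lie above its 5 control points.

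The order of the 7 levels was the same in all 9 libraries, from miR-181a-5p through miR-181b-5p, miR-181c-5p, miR-181d-5p, miR-181a-1-3p and miR-181c-3p to miR-181a-2-3p. The mature forms are 22 to 24 bases long, so counts were compared without a correction for length. How well each sequence is captured in library preparation was not tested. The nearest neighbours were miR-181d-5p and miR-181a-1-3p, with 1.12 to 1.88 reads of the first per read of the second, and miR-181c-5p and miR-181d-5p, with 1.20 to 1.84. The widest step among the guides was from miR-181b-5p to miR-181c-5p, where 9.36 to 24.0 reads of the first were counted per read of the second.

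Together the 7 members held 5.09% ± 1.21 (SD, n = 5) of the counts in control milk against 5.81% ± 1.35 (SD, n = 4) under the high-fat diet. In single libraries the share was 4.62%, 4.42%, 4.94%, 4.27% and 7.21% in the controls and 4.66%, 4.69%, 7.31% and 6.59% in the high-fat libraries, and the diets overlapped. The difference of 0.719 percentage points rests on a few libraries, being 1.25 without control library 5, 1.10 without high-fat library 1, 1.09 without high-fat library 2, 0.458 without high-fat library 4 and 0.220 without high-fat library 3. With the rows of a name summed it was 1.12. That sum adds the 2 rows of miR-181a-5p, which differed by at most 3 reads. It therefore raises the share of miR-181a-5p against names with a single row. High-fat library 1, with the highest summed leukocyte level of all libraries, had a family share close to those of control libraries 1 to 4. High-fat library 3, with the second highest leukocyte level, had the largest family share. In high-fat library 4 the leukocyte miRNAs made up 0.0605% of counts, below every control. In control library 5 they made up 0.106%, the highest of the controls. Both of these libraries were also high in the family. The part of leukocyte RNA in the family's level was not tested.

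The question of the study was whether a high-fat diet changes the small RNA secreted into milk, and for this family no member passed the test. The fit was limma-voom across all 312 names that passed a filter on low counts, with p-values adjusted over all 312. Of the 7 members 6 passed the filter, and miR-181a-2-3p was too low. None of the 312 names (0%) and none of the 6 members passed an adjusted p of 0.05. At an unadjusted p below 0.05 the fit gave 32 names (10.3%), of which 14 (4.49%) were higher and 18 (5.77%) lower under the high-fat diet. Among the higher was 1 of the 6 members, miR-181c-5p, and no member was among the lower. A level above every control in 4 of 4 high-fat libraries was found for 8 of the 312 names (2.56%) and for 1 of the 6 members, again miR-181c-5p. On the scaled values of the fit that count was 10 names (3.21%) and the same member. A level below every control in 4 of 4 was found for 5 names (1.6%) and no member. Fold changes were above 0 for 5 of the 6 members and for 158 of all names (50.6%), and the median log2 fold change was 0.20 for the 6 members and 0.00 for all names.

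For miR-181c-5p the log2 fold change (high-fat over control) was 0.59 ± 0.17 (SE), with a 95% interval from 0.20 to 0.97. Its unadjusted p was 0.00640, the 7th smallest of the fit, and its adjusted p was 0.277 by limma-voom. Without high-fat library 3 the log2 fold change was 0.46, and without high-fat library 4 also 0.46. Without both leukocyte-rich libraries 1 and 3 it was 0.69 with a limma-voom adjusted p of 0.146. That fit, over 325 names, kept only high-fat libraries 2 and 4, and library 4 had the highest miR-181c-5p level of all, 1081 RPM. Without control library 5 the log2 fold change was 0.57. The direction was the same in each of these fits, and the adjusted threshold was missed in each.

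The other guides had smaller differences with intervals on both sides of 0. The log2 fold change was 0.28 ± 0.17 (SE) for miR-181d-5p, with a 95% interval from -0.10 to 0.66, and it was 0.18 without high-fat library 3 and 0.18 without high-fat library 4. It was 0.20 ± 0.21 for miR-181a-5p, with an interval from -0.27 to 0.67. That value rests on single libraries, being 0.03 without high-fat library 3, 0.09 without high-fat library 4, 0.32 without control library 5 and 0.36 without high-fat library 1. For miR-181b-5p it was 0.08 ± 0.19, from -0.34 to 0.50, and it was -0.09 without high-fat library 3, 0.00 without control library 4 and 0.19 without control library 5. The adjusted p was 0.650, 0.719 and 0.873 by limma-voom for miR-181d-5p, miR-181a-5p and miR-181b-5p.

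The 3p members gave no call either. For miR-181a-1-3p the log2 fold change was 0.20 ± 0.15 (SE), with a 95% interval from -0.12 to 0.53. It was 0.09 without high-fat library 3, 0.13 without high-fat library 2, 0.14 without high-fat library 4 and 0.30 without high-fat library 1. For miR-181c-3p it was -0.09 ± 0.23, from -0.59 to 0.41, and this was the one tested member with a value below 0. It had the lowest counts of the 6, at 32 to 120 per library, and the widest interval. Without single libraries its value ran from -0.18, without control library 2, to -0.01, without control library 3. The adjusted p was 0.650 and 0.884 by limma-voom.

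**Figure D2:**
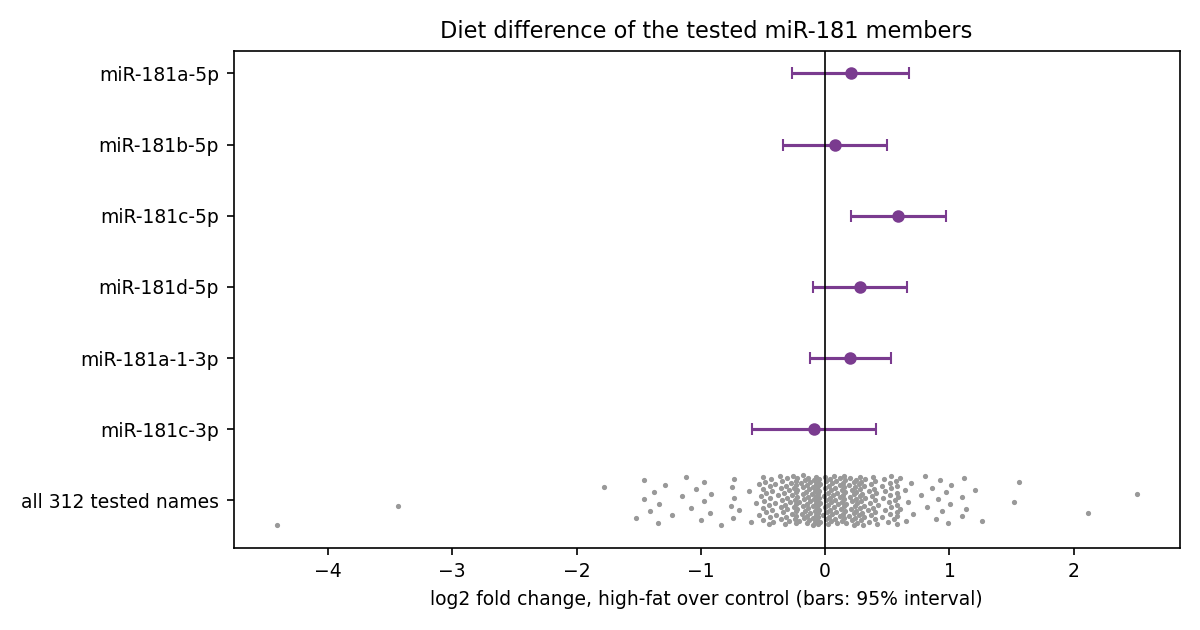
Log2 fold change (high-fat over control) of the 6 tested members with 95% intervals from limma-voom, above the fold changes of all 312 tested names as grey points spread vertically for legibility. The interval of miR-181c-5p, from 0.20 to 0.97, does not cross 0, while the other 5 do; none passed the adjusted threshold.

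The chromosome 8 guides were next set against the guides of the chromosome 1 and 2 clusters. miR-181c-5p and miR-181d-5p together made up, of the counts of the 4 guides, 2.07% ± 0.489 (SD, n = 5) in control milk against 2.46% ± 0.210 (SD, n = 4) under the high-fat diet. The 5 controls held 2.23%, 2.25%, 1.99%, 2.59% and 1.28%, and the 4 high-fat libraries 2.67%, 2.45%, 2.17% and 2.55%. Only high-fat library 1 was above every control, and control library 5 was the lowest of the 9. On the log2 scale the ratio of the 2 sums averaged -5.60 ± 0.40 (SD, n = 5) for control and -5.31 ± 0.13 (SD, n = 4) for high-fat dams, a difference of 0.29 that was 0.12 without control library 5. This ratio was described and given no test.

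Within the first look-alike couple, 1.63, 1.84, 1.41, 1.76 and 1.00 reads of miR-181c-5p were counted per 100 of miR-181a-5p in the controls. The high-fat libraries had 2.07, 1.99, 1.75 and 2.01, of which 3 of 4 were above every control. Within the second couple, the controls had 4.82, 4.09, 4.57, 6.80 and 2.54 reads of miR-181d-5p per 100 of miR-181b-5p and the high-fat libraries 5.24, 4.88, 4.35 and 5.79, inside the range of the controls. How far reads of an abundant guide with a sequencing error were counted under its scarce look-alike was not tested. Scaled to miR-181a-5p in place of the library size, in a fit over the other 311 names, the log2 fold change of miR-181c-5p was 0.39 ± 0.25 (SE) with a limma-voom adjusted p of 0.762. In the same fit the value was 0.08 ± 0.29 for miR-181d-5p and -0.13 ± 0.20 for miR-181b-5p. This scaling moved the median log2 fold change of the 311 names to -0.21, and 2 of the 5 other tested members were then above 0. A larger diet difference of miR-181c-5p than of miR-181a-5p was therefore not called.

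**Figure D3:**
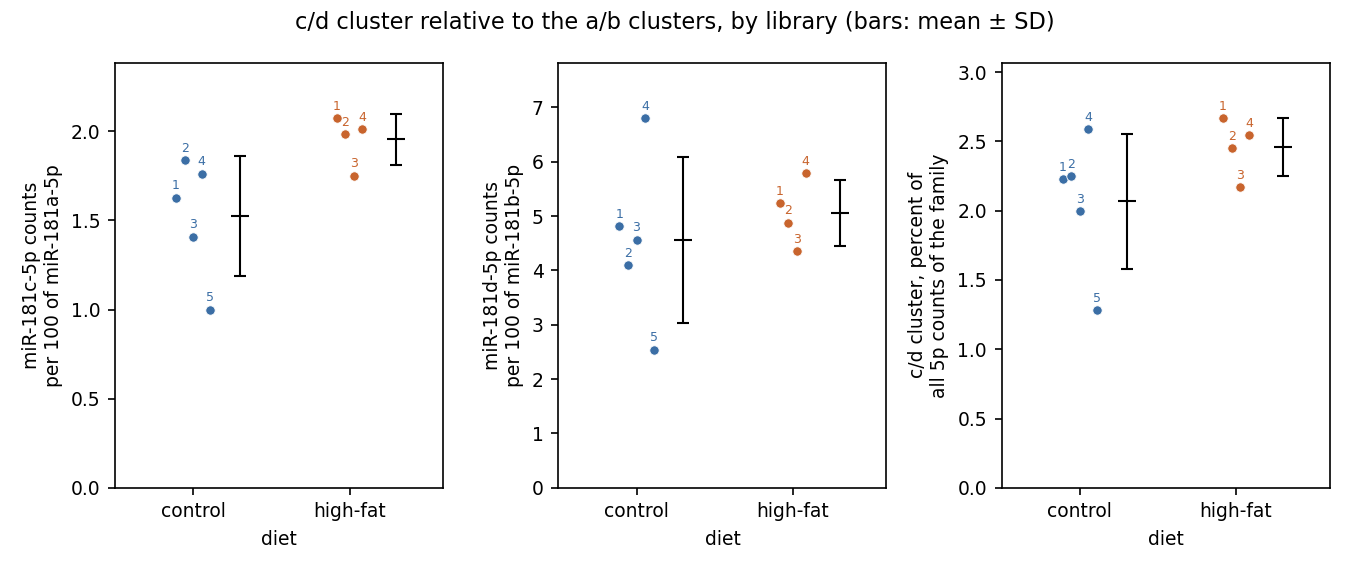
Counts of miR-181c-5p per 100 of miR-181a-5p, of miR-181d-5p per 100 of miR-181b-5p, and of both as a percent of the 4 guides, for each library (numbers are replicates) with mean ± SD in black. Control library 5 is lowest in all 3 panels, at 1.00, 2.54 and 1.28%, and the diets overlap in each.

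The 2 sides of the hairpins were compared as reads of the 5p side per read of the 3p side. miR-181a-5p had 112, 109, 128, 128 and 184 reads per read of miR-181a-1-3p in the controls and 115, 113, 147 and 148 in the high-fat libraries. The 5p count here is that of both miR-181a hairpins, so the ratio of the chromosome 1 hairpin alone can only be lower. miR-181c, which has a single hairpin, had 18.5, 24.3, 13.3, 14.3 and 14.1 reads of its 5p side per 3p read in the controls and 18.3, 23.9, 36.2 and 29.0 in the high-fat libraries. This ratio was below the pooled ratio of miR-181a in 9 of 9 libraries, and the hairpins of miR-181a were not compared with it singly. High-fat libraries 3 and 4 were above every control for miR-181c, and the other 2 lay within the controls. miR-181b-5p had 440, 689, 596, 470 and 1273 reads per read of miR-181b-1-3p in the controls and 492, 360, 721 and 449 in the high-fat libraries, again with control library 5 highest. miR-181d-3p had 4 counts over all 9 libraries, against 291 to 1579 counts of miR-181d-5p in each.

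The arm ratios were tested by limma over the 101 hairpins whose 5p and 3p names both passed the filter on low counts. Those of miR-181a-2, miR-181b-2 and miR-181d were left out by it. None (0%) passed an adjusted p of 0.05, and 7 (6.93%) had an unadjusted p below 0.05. The log2 ratio of miR-181c was 4.03 ± 0.36 (SD, n = 5) in control milk against 4.69 ± 0.42 (SD, n = 4) under the high-fat diet, a difference of 0.67 ± 0.29 (SE) with an unadjusted p of 0.0407 and a limma adjusted p of 0.539. For miR-181a-1 the log2 ratio was 7.02 ± 0.30 and 7.02 ± 0.21 in the same order, a difference of 0.00 ± 0.24 with a 95% interval from -0.54 to 0.54. For miR-181b-1 it was 9.29 ± 0.59 and 8.92 ± 0.41, a difference of -0.37 ± 0.34. That difference was -0.13 without control library 5, which had 9 reads of miR-181b-1-3p, -0.22 without high-fat library 2, -0.55 without high-fat library 3 and -0.65 without high-fat libraries 1 and 3. The limma adjusted p was 0.999 and 0.743 for these 2 hairpins.

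**Figure D4:**
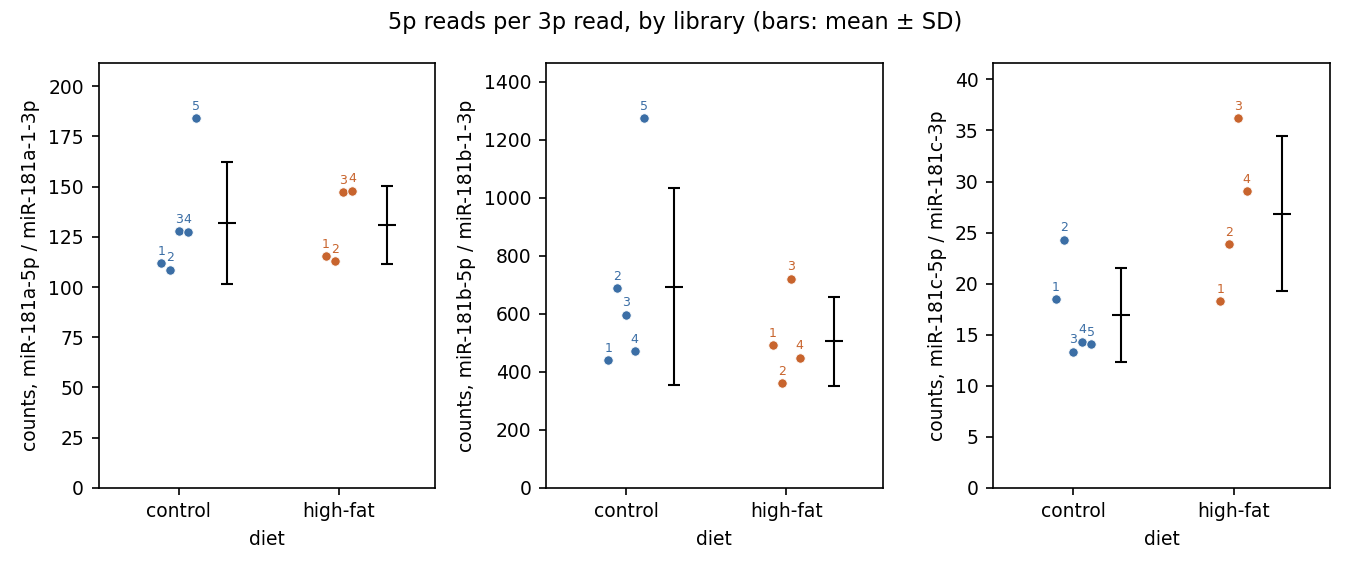
Reads of the 5p side per read of the 3p side for miR-181a, miR-181b and miR-181c, by library (numbers are replicates), with mean ± SD in black. miR-181c lies between 13.3 and 36.2, below the 109 to 184 of miR-181a, and control library 5 is the highest control for miR-181a and miR-181b but not for miR-181c.

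The 3p names also show from which cluster the passenger reads came. Of 5961 reads of both miR-181a 3p names over the 9 libraries, 25 (0.419%) were miR-181a-2-3p, from chromosome 2. The highest share in a single library was 3 of 263 reads or 1.14% (95% Clopper-Pearson interval 0.236% to 3.30%). Control library 1 had 0 of 537 reads, for which a limit of 3 counts allows up to 0.559% and the Clopper-Pearson interval up to 0.685%. Control library 4 had 0 of 426, with limits of 0.704% and 0.862%. These intervals cover counting error only. miR-181b split less unevenly. Of 422 reads of both miR-181b 3p names, 79 (18.7%) were miR-181b-2-3p, and the share per library was 11.1% to 33.3%. The highest share was that of control library 3, with 22 of 66 reads. How much of the guides each cluster made is not given by these shares, since a passenger's survival can differ between hairpins.

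The deposited table counts each guide once per hairpin, and the hairpin sequences show where those rows can differ. Capitals mark the mature 5p and 3p sequences.
Mir181a-1: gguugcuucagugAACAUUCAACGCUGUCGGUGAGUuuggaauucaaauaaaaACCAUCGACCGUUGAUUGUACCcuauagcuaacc
Mir181a-2: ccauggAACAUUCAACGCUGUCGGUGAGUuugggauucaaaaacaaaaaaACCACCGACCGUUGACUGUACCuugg
Mir181b-1: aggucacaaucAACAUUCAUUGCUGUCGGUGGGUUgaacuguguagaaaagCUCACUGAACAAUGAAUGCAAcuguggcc
Mir181b-2: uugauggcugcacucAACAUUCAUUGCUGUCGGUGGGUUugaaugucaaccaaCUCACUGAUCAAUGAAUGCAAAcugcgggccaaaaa
The hairpins of miR-181a go on with the same 3 bases, UUG, after the mature 5p sequence, and their rows differed by at most 3 reads in any library. The hairpins of miR-181b go on with GAA on chromosome 1 and with UGA on chromosome 2. Their rows differed by 77 to 513 reads, or 0.677% to 1.99%, and the chromosome 2 row was higher in 9 of 9 libraries. What the extra reads look like is not given by counts. The higher row was kept in each library. With the rows summed instead, the log2 fold change of miR-181a-5p was 0.16 and that of miR-181b-5p 0.04.

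The names outside the family that moved most like 2 of its guides were found by the mean absolute difference of log2 levels, each centred on its own mean over the 9 libraries. For miR-181a-5p these were miR-26a-5p at 0.135, miR-30b-3p at 0.188 and miR-30b-5p at 0.193 log2 units, where the median over all tested names outside the family was 0.472. miR-181b-5p, its own relative, was at 0.129. For miR-181c-5p they were miR-1843a-5p at 0.178, miR-1843b-5p at 0.186 and miR-200a-3p at 0.193, with a median of 0.473 over the other names. Its neighbour miR-181d-5p was at 0.215 and miR-181a-1-3p, from another cluster, was closer at 0.202. A name that hardly varies can also score below the median, so a low value alone does not show that 2 names moved together. miR-200a-3p belongs to a family that keeps cells epithelial, and its own log2 fold change was 0.24 ± 0.11 (SE), with a limma-voom adjusted p of 0.442.

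The summed levels of miRNAs of other cell types were set beside the family. All 7 leukocyte names had fitted fold changes above 0 and none was called. Their sum was above every control in high-fat libraries 1 and 3 and below every control in high-fat libraries 2 and 4, so the high-fat libraries lay on both sides of the controls. Together the leukocyte names held 0.0314% to 1.23% of counts, the 4 erythrocyte names 0.00201% to 0.0650%, the 2 endothelial names 0.000643% to 0.00291% and the 4 stromal names 1.04% to 2.57%, against 4.27% to 7.31% for the family. Most of the stromal sum was miR-143-3p, a smooth muscle miRNA, which measured 9913 to 25225 RPM and was above miR-181b-5p in 7 of 9 libraries. Of the erythrocyte names miR-144-3p and miR-144-5p, of the endothelial names miR-126a-5p and of the stromal names miR-214-3p were at 0 in at least 1 library. A list of 6 miRNAs that regulate blood cells beside miR-181 held miR-17-5p, miR-20a-5p and miR-92a-3p, with fold changes below 0, and miR-150-5p, miR-155-5p and miR-223-3p, with fold changes above 0, and none was called. The last 3 are also among the leukocyte names, and miR-223-3p is a miRNA of myeloid cells, at 7847 RPM in high-fat library 1. All 6 names of that list together held 0.437% to 0.924% of counts in control and 0.503% to 1.51% in high-fat libraries. Of them miR-92a-3p alone measured 3443 to 7844 RPM over all libraries. miR-150-5p, a marker of mature lymphocytes, measured 439 RPM in high-fat library 3 and at most 15.8 elsewhere. In that library miR-181a-5p measured 58242 RPM. In control library 5, miR-150-5p measured 11.9 RPM and miR-181a-5p 57100. That miR-150-5p level was the highest of the controls, as libraries 1 to 4 had 2.38, 0.803, 4.36 and 3.75 RPM. High-fat library 4 had 5.25 RPM of miR-150-5p and 53739 of miR-181a-5p. High-fat library 1 had 15.8 RPM of miR-150-5p but 35537 of miR-181a-5p. The part of lymphocyte RNA in the miR-181a-5p levels was not tested. All 8 secretory epithelium names were tested, 4 with fold changes above 0 and 4 below, and none was called.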

How the data were processed

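Per the labels' protocols, RNA came from the washed fat layer of milk of 9 dams, and NEXTflex small RNA libraries were read on a HiSeq2500. The submitters' processing notes name cutadapt 1.9.1 and GRCm38. Aligner, counter and miRBase release: not given in the sources used here. Raw read counts were deposited by the authors, 1 row per hairpin and mature name, with comma separators in 833 cells, which were removed. The highest row of a name was kept in each library. Because of these separators the columns were not recorded as plain counts, and limma-voom was used in place of a count model. After their removal the values were whole numbers, so the separators did not themselves prevent a count model. No count model was fitted. limma 3.58.1 (R 4.3.3) fitted voom-weighted log2 CPM with diet as the only term, after scaling by trimmed means of M values (30% of log ratios and 5% of levels trimmed from each end) and a filter of 10 counts at the median library (5.25 CPM) in at least 4 libraries and 15 in total, which left out 0.0470% of counts. Tests were two-sided and adjusted by Benjamini-Hochberg over all 312 names, or over 101 hairpins for arm ratios, which used a pseudocount of 0.5. With groups of 5 and 4, no exact permutation p below 0.0159 is possible, and none is reported. Fits were checked on simulated counts. The labels give each library its own dam; cage partners, batches and dates are unknown here. The members, the lists of cell type miRNAs and the alternatives were chosen with earlier results of these data known. The rule for named miRNAs took the family, any name with its seed, and the 3 names most like miR-181a-5p and miR-181c-5p each. Pairing by replicate number was checked: the deviations of same-numbered libraries correlated at 0.0621, -0.0755, 0.197 and -0.159. The best-matching control had the same number for high-fat libraries 1 and 3 but not for 2 and 4. No consistent pairing was seen, and none was used in the main fit.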

Additional observations from a re-analysis of the deposited data

Results flagged for a closer look

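Control library 5 lay far from the other controls in 3 of 28 groups of values searched, where 1 in 20, or 1.4, is due by chance. The 3 values are not independent, since miR-181a-5p enters each of them. Its level of miR-181a-5p was 57100 RPM, and the next control had 38538. Its share of the 7 members together was 7.21%, and the next control had 4.94%. It had 184 reads of miR-181a-5p per read of miR-181a-1-3p, and the next control had 128. This library also had the smallest total, 837817 counts, and the lowest secretory epithelium share, 46.1%. The part of either in these values was not tested.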

How the results depend on the processing

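No member was called in any of the 21 alternative fits. The number of names called was 0 and became 4 with no filter, 2 scaled to miR-181a-5p, 2 with limma trend at either prior count, 2 with library quality weights, 3 with a replicate block and 0 to 4 when single libraries were left out, with 4 without control library 5; the cause was not tested. The log2 fold change of miR-181c-5p ranged from 0.39 to 0.71 and its adjusted p from 0.146 to 0.762 by limma. That of miR-181b-5p reversed to -0.13 scaled to miR-181a-5p and ran from -0.0890 to 0.194 without single libraries, and that of miR-181a-1-3p reversed to 0.00 (-0.0047) scaled to miR-181a-5p. The arm ratio difference of miR-181a-1, 0.0026, ran from -0.0609 to 0.129 without single libraries and was -0.0029 without high-fat libraries 1 and 3. Control library 5 has no partner of its number and adds nothing to the difference under the replicate block. With the block, the log2 fold change of miR-181c-5p was 0.59. The family's share difference ran from 0.220 to 1.25 percentage points without single libraries. It was 1.12 with rows of a name summed, which adds the near-equal rows of miR-181a-5p and so raises its share. The cluster ratio difference ran from 0.12 to 0.38 without single libraries. The log2 ratio of miR-181a-1-3p to miR-181a-2-3p, high-fat minus control, was -0.83, and 0.33 with a pseudocount of 5, since miR-181a-2-3p had 0 to 8 counts.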
